A study of Mus musculus with 8 samples.

Results

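A set of 10 genes of antigen presentation was examined in the whole retina of 2-week-old Lpcat1 wildtype (WT) and knockout (KO) mice. Lpcat1 encodes lysophosphatidylcholine acyltransferase 1, which makes saturated phosphatidylcholine. The 10 genes, of 20018 genes named by at least 1 probe on the array, were chosen by symbol for their place in the pathway and fall into 3 groups. The class I chains were B2m, H2-K1 and H2-D1. The class II chains H2-Aa and H2-Ab1 were grouped with their invariant chain Cd74. The processing genes were Psmb8, Psmb9, Tap1 and Tapbp. Every probe assigned to these symbols was used, which gave 12 probes. Of these, 11 probes for 9 genes were bright enough to be tested, and the only H2-Aa probe was not.

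The mice were labelled as strain C57BL/6, KO mice lacked a functional Lpcat1 gene from the germline on, and no treatment is stated for either genotype. Per the study's methods, the line was made on a C57BL6/N background and crossed to C57BL6/J, and mice homozygous for the rd8 mutation of Crb1, itself a cause of retinal degeneration, were not used. Total RNA of 4 WT and 4 KO samples was hybridised in 1 colour to 8 arrays of 1 slide. The labels do not say whether each sample came from a separate animal, so the p-values below measure the spread between these samples, which may be technical. WT arrays occupied one row of the slide and KO arrays the other, and hence slide row and genotype cannot be told apart. Between 33117 and 36373 probes per array were well above background, and precision is limited by having 4 arrays per genotype. The Lpcat1 probe fell by 0.46 on the log2 scale in KO (SE 0.04, limma adjusted p = 0.0036) and stayed well above background on all 8 arrays.

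MHC class I molecules consist of a heavy chain, such as H2-K1 or H2-D1, bound to the invariant light chain beta-2 microglobulin, encoded by B2m. They are found on nearly all nucleated cells and show peptides from the cytosol to CD8 T cells. The immunoproteasome subunits Psmb8 and Psmb9 cut such peptides, the transporter Tap1/Tap2 carries them into the endoplasmic reticulum, and tapasin, encoded by Tapbp, holds the empty heavy chain at the transporter. MHC class II molecules are made mainly by professional antigen-presenting cells and show peptides from endosomes to CD4 T cells. Their alpha chain H2-Aa and beta chain H2-Ab1 are assembled on the invariant chain Cd74. Interferon gamma raises both classes, through the transactivators Nlrc5 for class I and Ciita for class II. In the healthy retina, neurons carry little class I, and class II is largely limited to rare antigen-presenting cells.

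The sequences upstream of 4 members are shown because the results contrast the class I chains with a class II chain, and because these genes are known to be driven through short elements close to the start of transcription. RefSeq promoter sequences (GRCm38.p6) matched 8 of the 10 members, all but H2-Ab1 and Cd74. The 200 bases before the start are printed 5′ to 3′ on the strand of the gene. They span chr2:122147487-122147686 on the plus strand for B2m, chr17:34000334-34000533 on the minus strand for H2-K1, chr17:35262894-35263093 on the plus strand for H2-D1 and chr17:34287824-34288023 on the minus strand for H2-Aa. For H2-K1, 2 start sites are listed and the second is shown. Capitals mark matches, on either strand, to the interferon response element written as GAANNGAAA or GAAANNGAA, to the NF-kappaB consensus, to TGACG (the core of the X2 box and of cyclic AMP elements) or to CCAAT.
B2m: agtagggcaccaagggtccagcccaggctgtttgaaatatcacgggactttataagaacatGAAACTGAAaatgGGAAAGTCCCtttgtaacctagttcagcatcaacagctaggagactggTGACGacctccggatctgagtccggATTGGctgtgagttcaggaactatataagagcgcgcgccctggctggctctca
H2-K1: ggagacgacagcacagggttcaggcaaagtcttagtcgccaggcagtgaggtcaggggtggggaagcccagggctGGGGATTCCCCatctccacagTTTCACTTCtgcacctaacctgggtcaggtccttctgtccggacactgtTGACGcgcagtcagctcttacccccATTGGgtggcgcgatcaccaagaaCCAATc
H2-D1: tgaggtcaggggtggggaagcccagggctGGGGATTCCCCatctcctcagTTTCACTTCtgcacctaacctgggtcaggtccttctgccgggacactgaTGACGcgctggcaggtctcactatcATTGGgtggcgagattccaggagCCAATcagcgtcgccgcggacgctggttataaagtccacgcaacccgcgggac
H2-Aa: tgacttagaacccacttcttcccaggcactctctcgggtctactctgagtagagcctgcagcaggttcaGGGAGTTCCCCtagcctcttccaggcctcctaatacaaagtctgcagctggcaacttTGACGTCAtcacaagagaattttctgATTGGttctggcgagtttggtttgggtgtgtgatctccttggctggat

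All 3 class I promoters held an interferon response element match, as GAAANNGAA in B2m and as GAANNGAAA read on the opposite strand in H2-K1 and H2-D1. The first base of the match lay at -139 in B2m, at -104 before the second H2-K1 start and at -150 in H2-D1. An NF-kappaB match stood beside each of them, and TGACG and CCAAT followed closer to the start. The H2-Aa promoter held the NF-kappaB, TGACG and CCAAT matches but neither interferon response spelling in this window, which says only that these letters are not there. In H2-Aa the TGACG matches of both strands overlap. Across 32851 promoter windows of 300 bases, 250 before and 50 after the start, 14.8% held GAANNGAAA or GAAANNGAA, 8.46% the NF-kappaB consensus, 20.8% TGACG and 37.4% CCAAT. The H2-K1 and H2-D1 windows aligned over 253 bases with 87.7% identity, against 57.6% to 64.3% for the other pairs of these 4 windows. Of the processing genes, the Psmb9, Tap1 and Tapbp windows held TGACG or CCAAT matches and the Psmb8 window held none of these motifs. A match is a description of sequence and not a measured binding site.

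To compare the genotypes, each level was expressed as log2 of the signal minus the 75th percentile of the same array, so that 0 is the brightness of that percentile and a difference of 1 is a doubling. Differences are KO minus WT with the standard error (SE) of limma, fitted across 33975 probes, and p-values were adjusted over all of them. Probes were called where the fold change exceeded 1.2 and the adjusted p was below 0.05. By this rule 3 of the 11 tested member probes were called higher in KO, and they belonged to H2-K1 and B2m. Over all tested probes, 1.39% were called higher and 1.54% lower, together 2.92%. No member probe was called lower (0 of 11, by limma). All 4 KO values lay above all 4 WT values in 5 of the 11 probes, against 6.05% of all probes, and in 0 of the 11 did all KO values lie below, against 11.4% of all probes. The median difference over the 11 probes was 0.19, beside -0.04 over all tested probes, and 10 of the 11 differences were positive. These counts are over probes bright enough to be tested and leave out H2-Aa. In whole tissue, fewer cells of a type and less RNA per cell cannot be told apart.

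**Figure D1:**
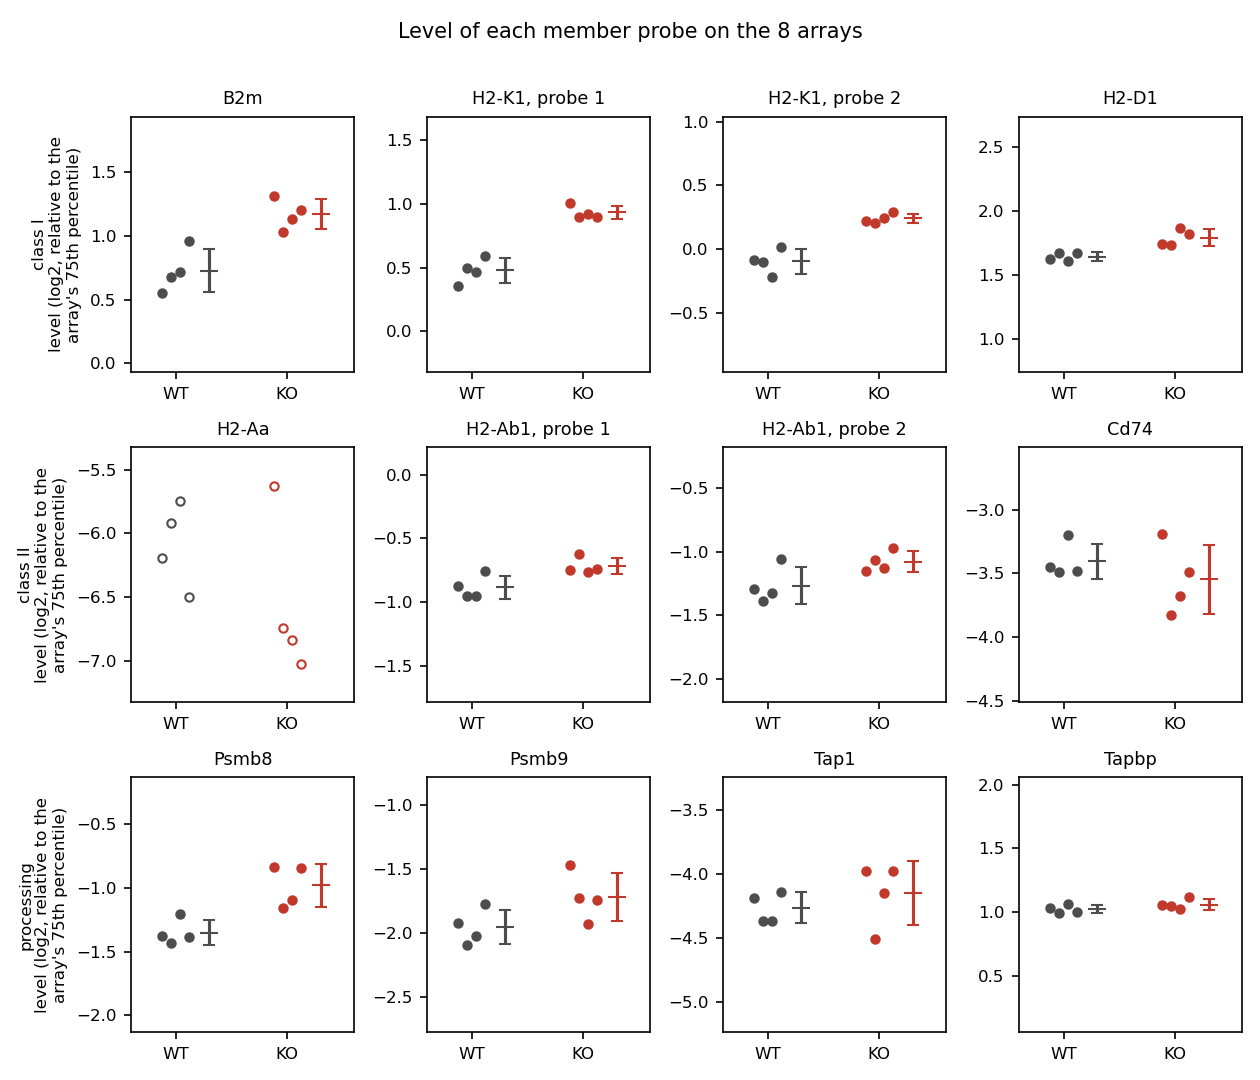
Level of each member probe on the 8 arrays, in log2 units above or below that array's 75th percentile, with WT in grey and KO in red. Each point is 1 array, bars are the mean ± SD of 4 arrays, every panel spans the same log2 range, and open points mark H2-Aa, which was not well above background. The 4 KO points lie above the 4 WT points for B2m, both H2-K1 probes, H2-D1 and Psmb8, and overlap with them in the other panels.

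Among the class I chains, H2-K1 and B2m rose. The H2-K1 heavy chain was measured by a probe printed at 10 spots, at 0.35, 0.50, 0.47 and 0.59 in WT replicates 1 to 4 and at 1.01, 0.90, 0.92 and 0.90 in KO replicates 1 to 4. The KO values were close together, and the lowest of them stood 0.30 above the highest WT value. H2-K1 rose by 0.45 (SE 0.06, limma adjusted p = 0.00966), a 1.37-fold change, with a two-sided exact permutation p of 0.0286, the smallest that 4 against 4 arrays can give. The other H2-K1 probe, printed once, read -0.08, -0.10, -0.22 and 0.02 in WT and 0.22, 0.21, 0.24 and 0.29 in KO. It rose by 0.34 (SE 0.05, limma adjusted p = 0.0185), again without overlap. The first probe was called in each of the 8 fits that left out 1 array, and the other probe in 4 of them. With no filter on dim probes the other probe was not called (limma adjusted p = 0.0680). On WT replicate 2, 1 of the 10 spots of the first probe read 100400 against 930 to 1093 at the others. It was marked as an outlier by the extraction software and left out. With such spots kept, the H2-K1 difference was 0.29 (limma adjusted p = 0.317).

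B2m, the light chain shared by all class I molecules, gave 0.55, 0.67, 0.72 and 0.96 in WT and 1.31, 1.03, 1.13 and 1.204 in KO. The genotypes did not overlap, although WT replicate 4 lay only 0.075 below KO replicate 2. B2m rose by 0.44 (SE 0.09, limma adjusted p = 0.0381), a 1.36-fold change. B2m was not called by the methods' unpaired t-test on the same values (adjusted p = 0.0629 after Benjamini-Hochberg) or, by limma, with a median shift (adjusted p = 0.0603) or no filter on dim probes (adjusted p = 0.103). B2m was called in only 1 of the 8 fits that left out an array, the one without WT replicate 4. Leaving out any other array gave a difference between 0.39 and 0.49 and a limma adjusted p between 0.0623 and 0.102.

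H2-D1, the other classical heavy chain, gave 1.62, 1.67, 1.61 and 1.67 in WT and 1.74, 1.73, 1.87 and 1.82 in KO. The values did not overlap, but the difference of 0.15 (SE 0.04, limma adjusted p = 0.0922) was not called. Its 95% interval ran from 0.04 to 0.25, which is below that of the first H2-K1 probe, 0.32 to 0.58, and overlaps that of the other H2-K1 probe, 0.21 to 0.46. Whether the heavy chains differ from each other was not tested. Class I heavy chain genes are close in sequence, and how far a probe of one reads transcripts of another was not tested.

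None of the class II chains was called. Cd74, the invariant chain, gave -3.45, -3.49, -3.20 and -3.48 in WT and -3.19, -3.83, -3.67 and -3.49 in KO. The KO values spread around the WT values, with the highest and the lowest of all 8 both in KO. KO minus WT came to -0.14 (SE 0.13, limma adjusted p = 0.562), with a 95% interval from -0.45 to 0.17, so these arrays left the sign of any difference unresolved. Without KO replicate 2 the difference was -0.05, and without KO replicate 1 it was -0.26.

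H2-Ab1, the class II beta chain, gave -0.88, -0.95, -0.95 and -0.76 in WT and -0.75, -0.62, -0.76 and -0.74 in KO. WT replicate 4 fell just above the lowest KO value, so the genotypes overlapped. The difference was 0.17 (SE 0.06, limma adjusted p = 0.124, exact permutation p = 0.0571). The other H2-Ab1 probe differed by 0.19 (SE 0.08, limma adjusted p = 0.186), also with overlap. The H2-Aa probe, for the alpha chain that pairs with this beta chain, was well above background on 0 of 8 arrays. Its signals were between 5.21 and 13.2, whereas the dimmest probes called well above background on the same arrays read between 18.1 and 28.1, so no fold change is given.

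The class I and class II groups were then set side by side. The mean level of B2m, H2-K1 and H2-D1 minus the mean of H2-Ab1 and Cd74 was 3.00, 3.17, 3.01 and 3.19 in WT and 3.33, 3.44, 3.52 and 3.42 in KO. All KO values lay above all WT values, and the contrast shifted by 0.34 between genotypes. With H2-Aa included as first planned, at levels that were not above background, the shift was 0.50 and the genotypes overlapped, with WT replicate 4 at 4.65 above KO replicate 1 at 4.54. No p-value is given for such a score over chosen genes. By gene, the groups were not cleanly divided, since the differences of H2-D1 (0.15) and H2-Ab1 (0.17) were alike in size and neither was called. H2-K1 and B2m were called and Cd74 was not, and whether their differences differ from each other was not tested.

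Of the processing genes, none was called, though all 4 differences were positive. Psmb8, the immunoproteasome subunit beta5i, gave -1.38, -1.43, -1.21 and -1.39 in WT and -0.83, -1.16, -1.09 and -0.84 in KO. All KO values lay above all WT values, with KO replicates 1 and 4 the highest. The difference was 0.37 (SE 0.09, limma adjusted p = 0.0508), just past the threshold. Psmb8 was called under 7 of 24 alternative settings, among them cyclic loess scaling (limma adjusted p = 0.0407) and normexp background correction (limma adjusted p = 0.0242), and in 0 of the 8 fits without 1 array. Of these 7 settings, 1 only raised the limit on adjusted p to 0.5, which made the call certain.

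Psmb9, the subunit beta1i, gave -1.93, -2.09, -2.02 and -1.78 in WT and -1.47, -1.72, -1.93 and -1.74 in KO. KO replicate 3 lay within the WT values, and the difference of 0.24 (SE 0.10, limma adjusted p = 0.212) was not called. Tap1, a chain of the peptide transporter, differed by 0.11 (SE 0.12, limma adjusted p = 0.622), with KO replicate 2 the lowest of all 8 arrays at -4.51. Tapbp lay between 1.00 and 1.06 in WT and between 1.02 and 1.12 in KO, and differed by 0.04 (SE 0.04, limma adjusted p = 0.593).

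**Figure D2:**
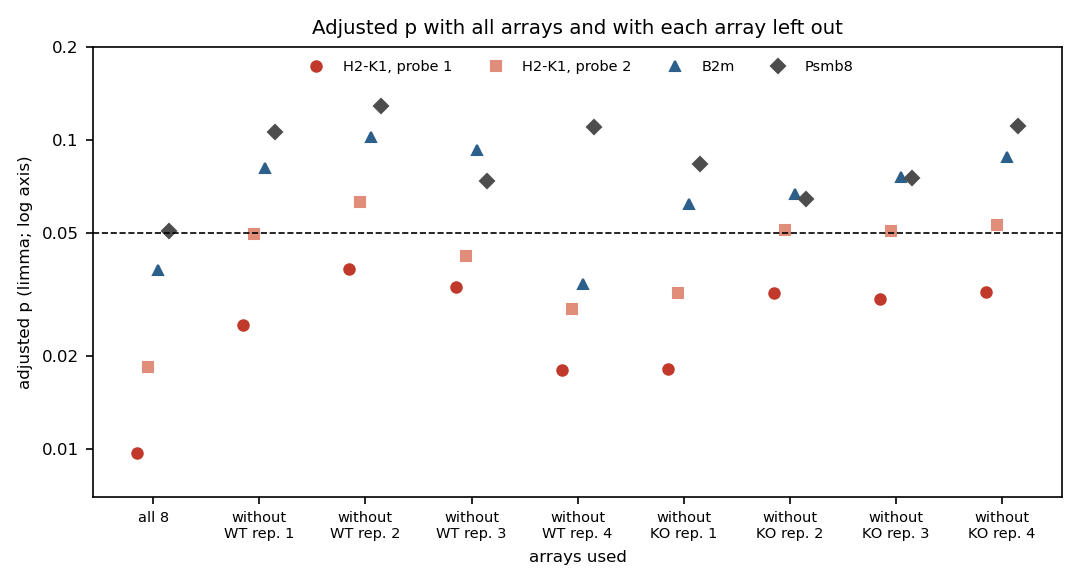
Limma adjusted p (log axis) of both H2-K1 probes, B2m and Psmb8 with all 8 arrays and with each array left out in turn, and the threshold of 0.05 as a dashed line. The first H2-K1 probe stays below the line throughout, B2m is below it with all arrays and without WT replicate 4, and Psmb8 lies above it in every fit shown.

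The partners of these genes were described next. Tap2, the other chain of the transporter, gave 0.15, 0.23, 0.07 and 0.18 in WT and 0.46, 0.48, 0.41 and 0.46 in KO. It rose by 0.29 (SE 0.04, limma adjusted p = 0.0153), without overlap. Tap1 was not called (0.11, SE 0.12), and its confidence interval, from -0.17 to 0.39, contained the Tap2 difference. The Tap1 probe was dim, with signals between 32.5 and 43.0. The lowest was on KO replicate 2, where the dimmest probe well above background read 28.1. Whether Tap1 and Tap2 differ from each other was not tested. Tap2 was called in 7 of the 8 fits that left out an array, and without KO replicate 2 its limma adjusted p was 0.0523. It was not called with no filter on dim probes. The list of class I loading and peptide supply held 10 genes beside the members, of which 9 were tested. Tap2 was the only one of them called, 8 of the 9 differences were positive, and their median was 0.04. The chaperones Calr (0.04) and Canx (0.03) and the proteasome activator subunits Psme1 (-0.02) and Psme2 (0.01) had limma adjusted p-values from 0.649 to 0.922. The third immunoproteasome subunit, Psmb10, differed by 0.05 (limma adjusted p = 0.518). The constitutive subunits that the immunoproteasome subunits replace, Psmb5, Psmb6 and Psmb7, had differences of -0.04, -0.09 and -0.12, and none was called (0 of 3, by limma).

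In the order of genes on chromosome 17, Psmb9, Tap1, Psmb8 and Tap2 are direct neighbours, followed by H2-Ob, H2-Ab1 and H2-Aa. Along this stretch the differences were 0.24, 0.11, 0.37 and 0.29 for the first 4 and 0.17 for H2-Ab1, while H2-Ob was not bright enough to be tested. The genes next to H2-K1, Vps52 and Ring1, differed by -0.02 and 0.05, and neither was called.

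Of 26 other class I heavy chain genes, 20 had a probe and 10 were tested. H2-T23, which encodes the nonclassical molecule Qa-1, rose by 0.35 (SE 0.07, limma adjusted p = 0.0309). Its values were 0.685, 0.85, 0.74 and 0.89 in WT and 1.22, 1.00, 1.11 and 1.23 in KO, without overlap. It was called in 1 of the 8 fits that left out an array, the one without KO replicate 2, and its limma adjusted p in the others reached 0.0846 without WT replicate 3. Its call was also lost with a median shift and with no filter on dim probes. None of the other 9 was called, 6 of the 10 differences were positive, and their median was 0.07. H2-Q2 also did not overlap between genotypes, with a difference of 0.24 (limma adjusted p = 0.0657). The 6 class I-like genes outside the H2 complex gave 0 called in either direction by limma, with differences from -0.31 to 0.13.

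Of 13 further genes of the class II pathway, 12 had a probe and 8 were tested. Ctss, the cathepsin that trims the invariant chain and that microglia express strongly, gave 1.18, 1.23, 1.11 and 1.33 in WT and 1.525, 1.56, 1.66 and 1.45 in KO. It rose by 0.34 (SE 0.06, limma adjusted p = 0.0273) and was the only one of the 8 called. Its call was lost without WT replicate 1, 2 or 3 and without KO replicate 2 or 3, with a limma adjusted p of at most 0.0774, and also with a median shift or no filter on dim probes. H2-Eb1, another class II beta chain, differed by -0.07 (limma adjusted p = 0.760), and H2-DMa and H2-DMb1, which load peptide on class II, by -0.06 (limma adjusted p = 0.647) and 0.29 (limma adjusted p = 0.141). The median over the 8 genes was 0.05. H2-Eb2, H2-Oa, H2-Ob and H2-DMb2 were not bright enough to be tested.

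**Figure D3:**
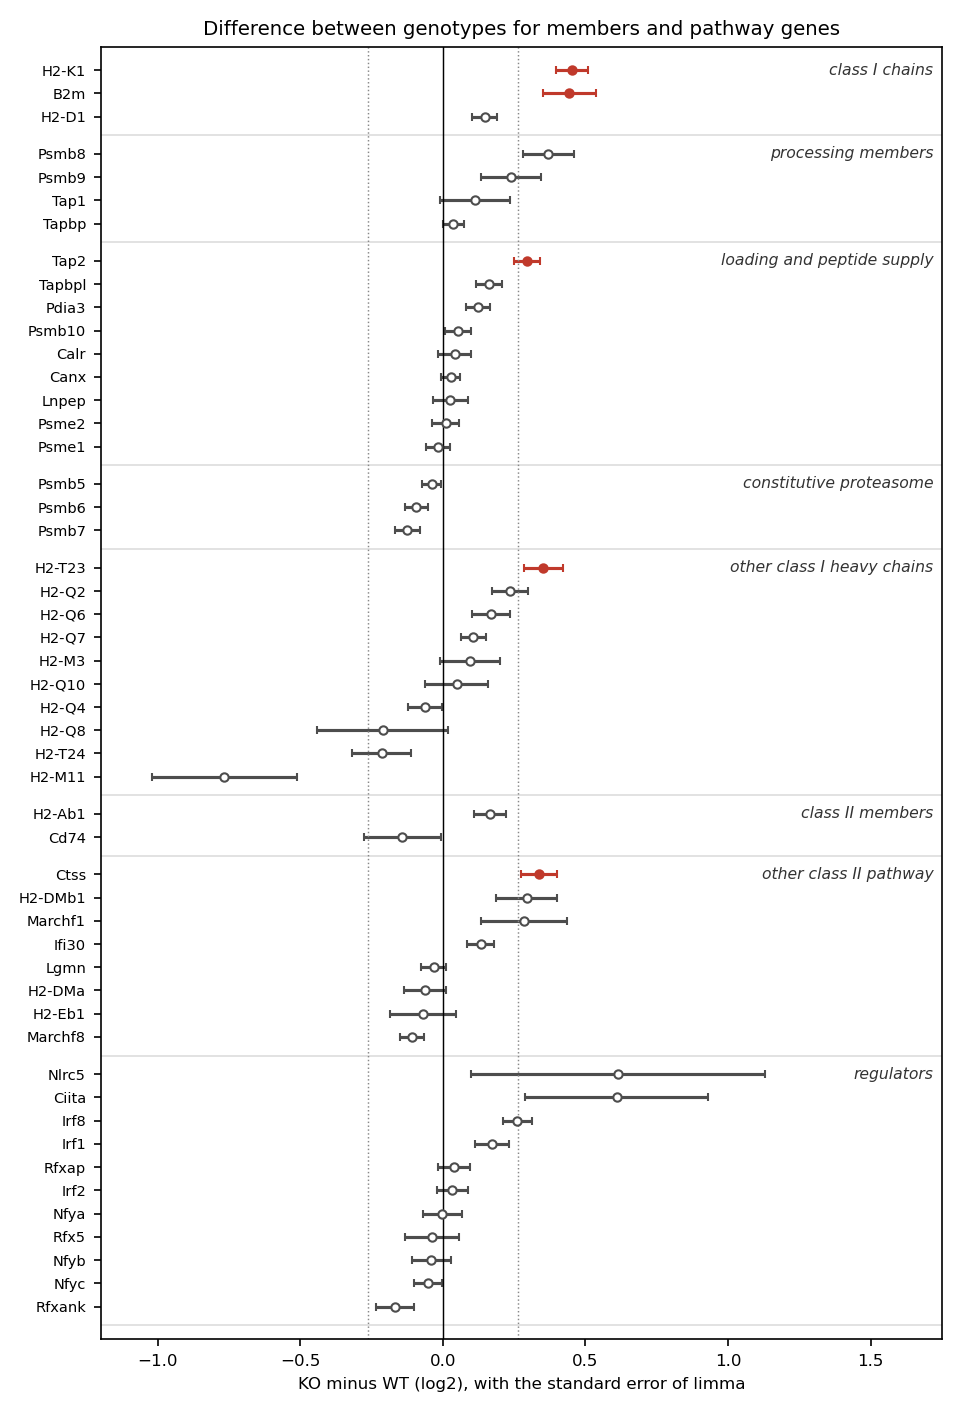
Difference between genotypes (KO minus WT, log2) for the tested members and the tested genes of the class I and class II pathways and most of their regulators, 1 probe per gene, with the SE of limma. Filled red points were called and open points were not, and dotted lines mark a fold change of 1.2 in either direction. The called genes are H2-K1, B2m, Tap2, H2-T23 and Ctss, and Cd74 lies at -0.14.

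None of the 12 regulators of MHC transcription was called (0 of 12, by limma), with a median difference of 0.04. Nlrc5, the class I transactivator, differed by 0.61 (SE 0.51, limma adjusted p = 0.513), which came from KO replicate 3 at -2.26 while the other 7 arrays read -4.86 to -4.16. Ciita, the class II transactivator, differed by 0.61 (SE 0.32, limma adjusted p = 0.298), with overlap and with KO replicate 1 the highest at -2.92. Both probes were dim, and each missed the background limit on 1 array. Irf1 differed by 0.17 (limma adjusted p = 0.124) and Rfx5 by -0.04 (limma adjusted p = 0.836). Irf8, a factor of macrophages, differed by 0.26 (SE 0.05, limma adjusted p = 0.0296), which passed the limit on p but stayed just under the fold change of 1.2. It was called under 7 of the alternative settings, which were 4 other scalings of the arrays, the deposited values, array weights and leaving out WT replicate 1. The probe of Ifng, interferon gamma itself, was well above background on 1 KO array and on no WT array, and its receptor chains Ifngr1 (-0.13) and Ifngr2 (0.02) were not called.

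Of 12 interferon-induced genes, 11 had a probe, 10 were tested, and 3 rose, with a median difference of 0.57. Ifit3 rose by 1.02 (SE 0.13, limma adjusted p = 0.0104), Gbp2 by 0.68 (SE 0.10, limma adjusted p = 0.0130) and Irf7 by 0.58 (SE 0.09, limma adjusted p = 0.0146). All 3 were called in each of the 8 fits that left out an array, while with no filter on dim probes Ifit3 alone was. The arrays were ordered alike by several of these genes. KO replicate 1 was the highest and KO replicate 2 the lowest of the 4 KO arrays for Isg15, Usp18, Gbp3, Igtp, Irgm1 and Oas1a, and the same holds for B2m. On the first H2-K1 probe the 4 KO arrays spanned 0.11.

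Markers of other cells that could carry MHC transcripts were examined beside these results. All 12 microglia and macrophage markers were tested, and 4 of them rose. Tyrobp, an adaptor of microglial receptors, rose by 0.65 (SE 0.06), Trem2 by 0.49 (SE 0.07), C1qa by 0.50 (SE 0.08) and Aif1 by 0.45 (SE 0.07), with limma adjusted p-values from 0.00343 to 0.0210. Tyrobp and Trem2 were called in 8 of 8 fits that left out an array, C1qa in 4 and Aif1 in 3, with limma adjusted p-values of at most 0.0644 and 0.0594. With no filter on dim probes Tyrobp alone of these was called. All 12 differences were positive, with a median of 0.26 and no overlap in 9 of the 12. The level summed over the list, in multiples of the signal at the 75th percentile, was 30.96 to 38.7 in WT and 34.1 to 40.4 in KO. The Itgam probe, which makes up much of that sum, differed by 0.02. The part of these cells in the class I values was not tested.

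Of the border macrophage markers, Mrc1, Cd163, Pf4 and Ms4a7 were not well above background on any array, and Lyve1 differed by 0.25 (limma adjusted p = 0.0341), under the limit on fold change. Dendritic cell markers gave 0 called of 4 tested by limma, with Cd209a, Xcr1 and Clec9a not above background on any of the 8 arrays, Itgax above it on 1 KO array and a summed level between 0.484 and 0.4995 in WT and between 0.438 and 0.505 in KO. Itgax read -5.35 to -4.55 on the KO arrays and -7.01 to -5.96 on the WT arrays. Outside that 1 KO array these readings were not above background, so no fold change is given. Ccr7 (-0.50, limma adjusted p = 0.0597) and Zbtb46 (-0.43, limma adjusted p = 0.250) were lower on every KO array than on every WT array. B cell markers gave 0 called of 3, with Ms4a1 not above background on any array and sums between 0.166 and 0.225 in WT and between 0.163 and 0.202 in KO. T and NK cell markers gave 0 called of 5, with Cd3g, Cd2 and Ncr1 not above background on any array and sums between 3.11 and 3.69 in WT and between 3.0998 and 3.501 in KO. Among 8 endothelial markers only Ly6c1, a surface protein of the Ly6 family, was called, with a rise of 0.42 (SE 0.06, limma adjusted p = 0.0131) that was not called with no filter on dim probes, and 6 of the 8 differences were negative. Retinal pigment epithelium markers gave 0 called of 4 and blood markers 0 of 3 (by limma).

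Müller glia markers gave 0 called of 6 by limma, but 5 of the 6 differences were positive, 4 of the 6 did not overlap, and the summed level was 147 to 151 in WT against 162 to 169 in KO, also without overlap. Aqp4 (0.25) and Dkk3 (0.20) of this list were called with quantile normalization and with cyclic loess scaling. The part of this shift in the MHC values was not tested. Of the costimulation list, 0 of 4 tested genes were called by limma. Cd86, a costimulatory ligand of antigen-presenting cells, did not meet the brightness limit for a test, being well above background on 3 KO arrays and 0 WT arrays. It read -5.33, -5.52, -5.45 and -5.69 in WT and -4.86, -4.79, -4.59 and -4.71 in KO. All KO values lay above all WT values, but the WT readings were not above background, so no fold change is given. Cd86 was called with no filter on dim probes and without KO replicate 2. In the latter fit Cd86 was tested only because the KO arrays left in all met the limit. These calls are therefore not evidence of a rise.

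The rod markers of the labelled tissue were well above background on all 8 arrays. Nr2e3, a rod transcription factor, fell by 0.50 (SE 0.08, limma adjusted p = 0.0212) and Sag, the rod arrestin, fell by 0.36 (SE 0.04, limma adjusted p = 0.00517), and all 6 rod differences were negative. With 1 array left out at a time, Sag was called in 8 of 8 fits and Nr2e3 in 1, the latter with a limma adjusted p of at most 0.0641. Sag was not called with quantile normalization, nor Nr2e3 with no filter on dim probes. The summed rod level was 1077 to 1115 in WT and 911 to 955 in KO, without overlap. The part of this shift in the MHC values was not tested.

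**Figure D4:**
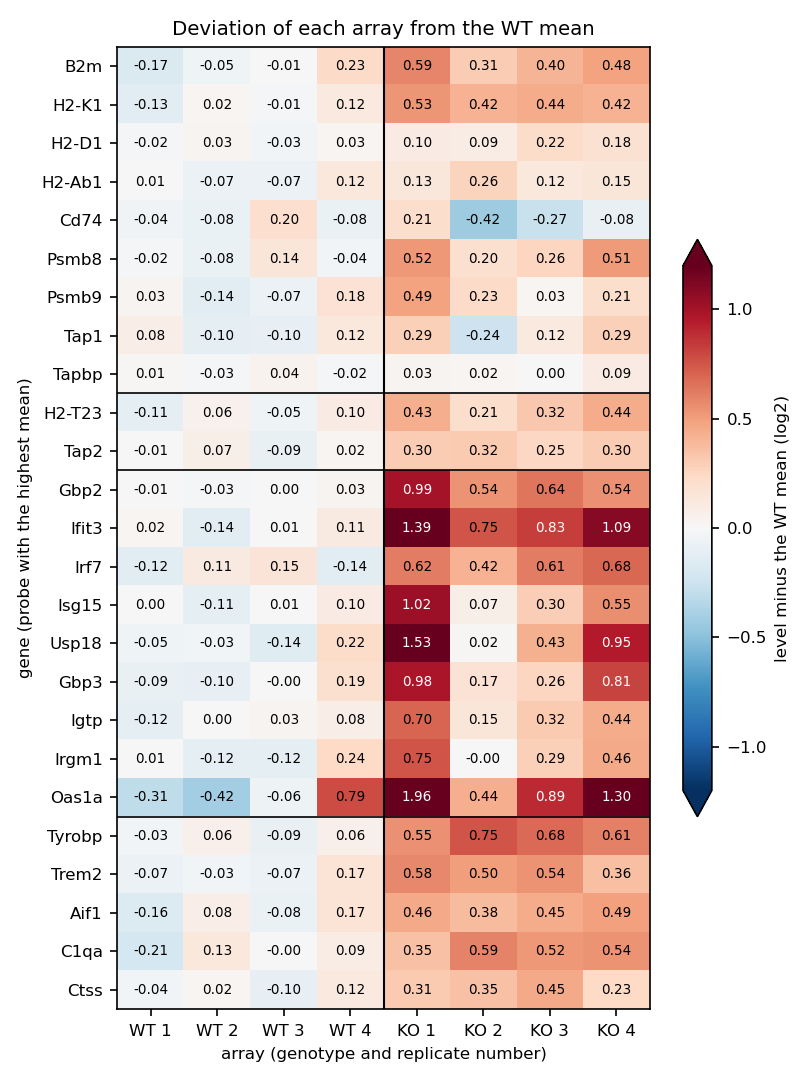
Level of each array minus the WT mean of the same gene (log2), for the tested members, H2-T23 and Tap2, the interferon-induced genes and microglia genes with Ctss, 1 column per array and 1 row per gene. H2-K1 is shifted by nearly the same amount on all 4 KO arrays, Cd74 is below the WT mean on 3 of them, and the interferon-induced genes shown, apart from Irf7, are highest on KO replicate 1.

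The genes whose pattern over the 8 arrays was most like that of a class I and a class II member were listed by Pearson's r among 14929 genes, as a description. For B2m they were Wee1 (0.97), Plch1 (0.97), Ggct (0.97), P2ry6 (0.97) and H2-T23 (0.96). Wee1 and H2-T23 were called higher in KO. For Cd74 they were Nmu (0.97), Adora2a (0.94), Vwf (0.94), Slc22a28 (0.94) and Spats2l (0.93), none of which was called. With 8 arrays and this many genes, coefficients of such size are found for many patterns, and all points share the slide and the scaling.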

How the data were processed

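Whole retina RNA of 4 WT and 4 KO samples was measured on Agilent SurePrint G3 mouse arrays, and groups and replicate numbers came from the labels. For quantification the authors used Feature Extraction 10.7.1.1. Its deposited output is background-subtracted intensity on a linear scale, not scaled between arrays. The deposited series table holds log2 values, which the authors shifted by the 75th percentile in GeneSpring. They exceeded the levels computed here by 0.123 to 0.138 on WT arrays and by 0.141 to 0.148 on KO arrays (SD at most 0.0067). KO minus WT was thus slightly larger with the deposited values, at 0.456 against 0.444 for B2m. Psmb8 was called with them (limma adjusted p = 0.0496). The deposited table served as an alternative.

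The processed signal was put on the log2 scale, and the 75th percentile of each array's 59305 non-control spots was subtracted. Outlier spots were left out (86 to 147 per array), and repeated spots were averaged on the log2 scale. Tested were 33975 of 55681 probes, those that passed the background flag on every array of WT, of KO or of both. Symbols came from a RefSeq table by transcript, which named 26413 probes. Its assembly differs from the array's design (mm9), so it gave names and gene order only.

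Limma 3.58.1 (R 4.3.3) was fitted with genotype as the only term, and p-values were adjusted by the Benjamini-Hochberg method across every tested probe. Exact permutation tests of single values were two-sided. A gene's value was that of its probe with the highest mean, and a gene was called when 1 of its probes was. The methods name unpaired t-tests in general, so the t-test was an alternative.

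Members, lists and tests were chosen with earlier results of these data known. Named were all members, up to 6 called genes of each list, the regulators Nlrc5, Ciita, Irf1 and Rfx5, and the 5 genes most like B2m and Cd74. Some genes under this rule are not reported here. Other genes in the text were named after their values were seen. Listed genes without a probe were not analysed here: H2-L, H2-Q9, H2-T9, H2-T22, H2-M2, H2-Bl, Cd1d2, H2-Ea, Mx1 and Hbb-bs. Probe sequences were not used here, and 0 per-sample columns went unused. Alternatives were other scalings, background corrections, filters, thresholds and tests, the replicate number as a block and leaving out each array. The fit was tested on simulated data.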

Additional observations from a re-analysis of the deposited data

Results flagged for a closer look

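In 2 of 22 groups of 4 values, 1 array lay far from the other 3, where chance flags about 1 in 20 groups. For the first H2-Ab1 probe in KO, replicate 2 read -0.62 and the others -0.76 to -0.74, so that the gap was 0.836 of the whole range, past the limit of Dixon's test for 4 values. The other H2-Ab1 probe did not show this, at -1.15, -1.06, -1.13 and -0.97 in KO replicates 1 to 4. For Cd74 in WT, replicate 3 read -3.20 and the others -3.49 to -3.45, with a gap of 0.86 of the range. Both are class II genes that were not called.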

How the results depend on the processing

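Over the alternatives run for the 9 tested members, their count of calls and the class contrast, 0 of 265 values changed direction. Many of these could not change it. A count of calls has no direction, and settings that alter only the filter, thresholds, t-test or block keep the same differences. A shift of whole arrays keeps the same class contrast. The total thus overstates how often direction was put to a test. Against 3 member probes called here, 1 was called with no filter on dim probes, 0 with a minimum fold change of 1.5, and 1 to 3 when each array was left out. Among the other settings, apart from the replicate block, the count was 2 to 4.

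The labels give no reason to pair equal replicate numbers of WT and KO. The deviations of same-numbered arrays correlated at 0.249, 0.0687, 0.037 and 0.112, not all above 0.1, so the numbers were not taken as pairs, although 7 of 8 arrays correlated best with their own number, a hint from the data and not from the design. With replicate number as a block, 0 member probes were called (H2-K1 limma adjusted p = 0.0553, B2m limma adjusted p = 0.0753), and 395 of all probes against 993. With the block Tap2, Ifit3, Tyrobp, C1qa, Ly6c1 and Sag were called and H2-T23, Ctss, Gbp2, Irf7, Trem2, Aif1 and Nr2e3 were not.

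The class I minus class II contrast, H2-Aa included, was 0.30 to 0.62 under quantile, cyclic loess, background, flagged spot, probe and left-out array settings. It is a difference within each array, so a shift of whole arrays cancels out of it. It therefore stayed at 0.496 with the median shift, the other percentile shift and the deposited values. The block also left it at 0.496, and none of these settings put the contrast to a test. Without H2-Aa the contrast was 0.30 to 0.37 when each array was left out (added once the data had been seen). The split of all calls depended on scaling, with 471 higher and 522 lower here and 630 and 341 with cyclic loess. The median over all tested probes stayed between -0.04 and -0.00286 in the scaling settings. H2-Aa and the dim regulators are limited by background.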
